A study of Mus musculus with 6 samples.

Results

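Messenger RNA of 10 circadian clock genes was followed through the 6 lacrimal gland libraries of the series: Clock, Arntl, Nr1d1, Dbp, Per1, Per2, Per3, Cry1, Cry2 and Bhlhe40. The members were chosen by name, as the rows of the mRNA table that carry these symbols, and are 10 of its 22564 genes. All 10 passed the filter on low values, a mean of at least 0.5 FPKM (fragments scaled by transcript length and library size), and so belong to the 11772 genes tested. The lacrimal gland secretes the watery part of the tear film, and the series compares glands of AQP5+/+ and AQP5-/- mice, which have or lack aquaporin 5, a water channel of the secretory cells. The labels give C57BL/6 mice of age 6 month in both groups, with 3 libraries of wild type glands and 3 of glands lacking AQP5, a line that the study made by CRISPR/Cas9 editing. The study's captions count the sequenced samples as mice, while the labels tie no library to an animal and no source gives the sex of these mice or the hour at which the glands were taken. P-values reflect how far these libraries spread.

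In nearly every mouse tissue CLOCK and ARNTL (also called BMAL1) pair up and switch on the Per and Cry genes, whose proteins then enter the nucleus and shut the pair down, and this loop takes about a day. A second loop runs through Nr1d1 (REV-ERB alpha), which is switched on by the pair and represses Arntl, while Dbp is a target of the pair whose protein drives output genes through D-box sequences. In peripheral tissues of mice kept in light and dark Nr1d1 and Dbp are known to peak by day, Per2 and Cry1 later, and Arntl at roughly the opposite time to Nr1d1, so that RNA levels of these genes depend on the hour of collection.

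Start site sequences are shown for 4 of the 5 members in which the letters of a clock motif were found, leaving out Clock, whose single match is given after them. RefSeq windows of 250 bases before to 50 bases after an annotated start (GRCm38.p6) matched 8 of the 10 members, with 12 windows between them, and Per2 and Bhlhe40 were not matched. Searched on both strands were CACGTG (the E-box of CLOCK and ARNTL), TTATGTAA (a D-box), AGGTCA (the core element read by REV-ERB receptors) and TGACGTCA (the cyclic AMP response element), and capitals mark the matches, none of which overlap. Per1, on the plus strand at chr11:69098699-69098998, held an E-box whose first base lay at position -166 and an AGGTCA element on the opposite strand at -137. Cry1, on the minus strand at chr10:85185005-85185304, held an E-box at -60. Per3, on the minus strand at chr4:151044616-151044915, held 2 D-boxes at -205 and -158, and Arntl, on the plus strand at chr7:113207261-113207560, an AGGTCA element at 32 after the start.
Per1: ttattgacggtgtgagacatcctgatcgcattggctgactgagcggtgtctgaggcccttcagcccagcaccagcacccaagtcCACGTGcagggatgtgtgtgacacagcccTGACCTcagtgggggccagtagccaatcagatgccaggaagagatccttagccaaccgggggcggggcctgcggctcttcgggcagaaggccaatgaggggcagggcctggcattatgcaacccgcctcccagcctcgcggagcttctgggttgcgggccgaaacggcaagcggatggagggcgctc
Cry1: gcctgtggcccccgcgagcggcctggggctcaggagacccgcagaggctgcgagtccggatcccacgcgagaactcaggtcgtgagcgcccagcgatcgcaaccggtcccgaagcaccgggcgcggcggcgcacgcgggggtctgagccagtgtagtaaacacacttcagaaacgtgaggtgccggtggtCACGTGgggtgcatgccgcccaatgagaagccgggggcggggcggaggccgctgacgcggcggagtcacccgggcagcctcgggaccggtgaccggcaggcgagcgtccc
Per3: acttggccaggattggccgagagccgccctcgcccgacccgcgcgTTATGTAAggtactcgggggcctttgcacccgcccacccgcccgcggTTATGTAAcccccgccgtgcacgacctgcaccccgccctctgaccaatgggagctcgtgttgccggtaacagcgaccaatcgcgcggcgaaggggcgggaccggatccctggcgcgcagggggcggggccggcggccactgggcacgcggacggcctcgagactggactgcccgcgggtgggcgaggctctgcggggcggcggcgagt
Arntl: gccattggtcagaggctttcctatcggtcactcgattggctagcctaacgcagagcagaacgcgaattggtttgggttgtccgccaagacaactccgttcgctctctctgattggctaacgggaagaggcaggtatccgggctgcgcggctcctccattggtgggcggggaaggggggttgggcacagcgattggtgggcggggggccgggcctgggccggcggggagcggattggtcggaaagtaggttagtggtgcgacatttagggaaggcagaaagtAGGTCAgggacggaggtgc

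Over all 32851 start site windows in the reference set, the E-box letters stood in 7.15%, the D-box letters in 0.938%, the AGGTCA element in 16.3% and the cyclic AMP response element in 1.79%. Of the remaining windows 1 of Clock held an AGGTCA element, at position -119, and the windows of Cry2, Dbp and Nr1d1 held no letters of the 4 motifs. These matches describe the sequence and were not tested as binding sites.

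The targeted gene was at 154, 89.0 and 142 FPKM in the AQP5+/+ libraries and at 0.378, 0.177 and 0.170 FPKM in the AQP5-/- libraries (log2 fold change -7.41, limma adjusted p = 8.6e-06). The libraries held 11244579 to 13723134 estimated fragments and 14555 to 15096 genes above 0. Summed over all genes, FPKM came to 385631 in AQP5+/+ replicate 1 and to 747563 to 1073765 in the other libraries. A list of 10 acinar and ductal epithelial markers was above 0 for each marker in each library, though Aqp5 is among them at the residual levels just given. The 9 others summed to 1070 to 1659 FPKM. The libraries also differed in ways that genotype does not name. Transcripts of 4 Y-linked genes summed to 33.0 FPKM in AQP5+/+ replicate 2 and to 49.7 to 58.0 FPKM in the AQP5-/- libraries, but to 0.320 and 0.185 FPKM in AQP5+/+ replicates 1 and 3. Skeletal muscle markers summed to 101 FPKM in AQP5+/+ replicate 2 against 1.81 to 8.18 FPKM elsewhere, and that library alone with AQP5-/- replicate 1 had 0 of 10 of them at 0.

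**Figure D1:**
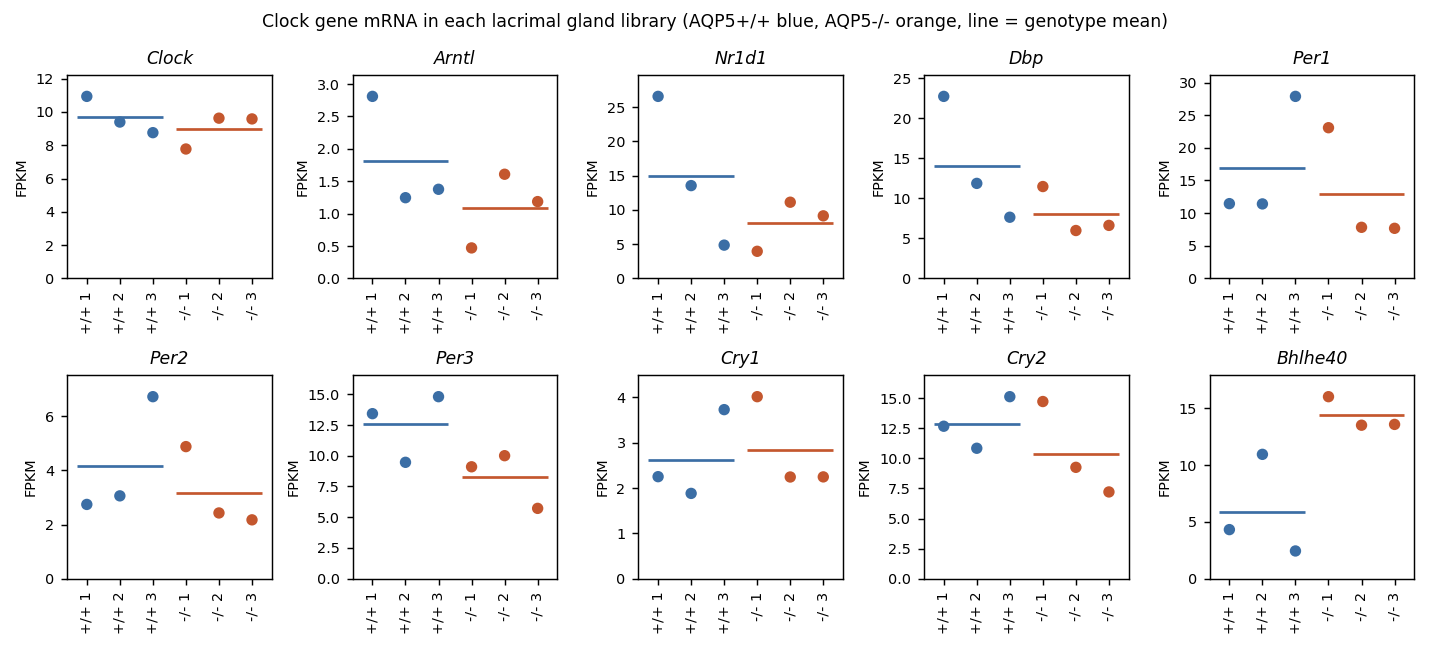
FPKM (linear axes from 0) of the 10 clock genes in the 3 AQP5+/+ libraries (blue) and the 3 AQP5-/- libraries (orange), with a line at each genotype mean. Per1, Per2, Cry1 and Cry2 have their 2 highest points in AQP5+/+ replicate 3 and AQP5-/- replicate 1, and the genotypes are fully apart for Bhlhe40.

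Among the 10 members 0 reached a limma adjusted p under 0.05, a level that 2 of the 11772 genes tested (0.017%) reached. Adjusted p-values of the members ran from 0.431 to 0.895, and edgeR and DESeq2 on estimated fragments likewise called 0 members. At the study's threshold, a fold change of at least 2 with an unadjusted p under 0.05, 1 member was called, Bhlhe40, higher in AQP5-/-, beside 2.04% of all genes in either direction, 1.16% in that direction and 0.883% in the other. At an unadjusted p under 0.05 alone the members were 2, Bhlhe40 higher and Per3 lower, beside 11.4% of all genes. The log2 fold change was below 0 for 8 of 10 members and for 67% of all genes. The median was -0.39 for the members and -0.12 for all genes, and with each library centred on its median gene, a shift of 0.14, these were -0.26 and 0.01 with 7 members below 0, Clock changing sign. In bulk glands fewer cells of a type and less RNA per cell cannot be told apart.

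On the FPKM scale, which allows for transcript length, the mean level over 6 libraries was highest for Per1 (14.9), followed by Cry2 (11.6), Nr1d1 (11.5), Dbp (11.1), Per3 (10.4), Bhlhe40 (10.1) and Clock (9.34). Per2 (3.67), Cry1 (2.73) and Arntl (1.45) were lower. Neighbours in this order overlapped in the ranges of their 6 libraries except for Clock over Per2, where the lowest Clock library (7.77) lay above the highest Per2 library (6.72). The order differed by genotype, since Bhlhe40 had the highest mean in AQP5-/- (14.4, with Per1 at 12.9) but stood below Clock in AQP5+/+ (5.91 and 9.69), where Per1 was highest (16.9).

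Of the activating pair, Clock encodes the DNA-binding partner of ARNTL. Clock (chr5:76209868-76305603, minus strand, GRCm38) was at 10.9, 9.39 and 8.75 FPKM in the AQP5+/+ libraries and at 7.77, 9.62 and 9.58 FPKM in the AQP5-/- libraries. Its libraries lay close together and the genotypes overlapped. The log2 fold change, on the log2(FPKM + 0.5) scale as throughout, was -0.10 (SE 0.15, 95% interval -0.46 to 0.25, limma adjusted p = 0.771), and with median centring it was 0.03. Arntl (chr7:113178471-113314126, plus strand) was at 2.81, 1.25 and 1.38 FPKM in AQP5+/+ and at 0.471, 1.61 and 1.19 FPKM in AQP5-/-. AQP5+/+ replicate 1 was the highest and AQP5-/- replicate 1 the lowest, with the other 4 libraries between 1.19 and 1.61 FPKM. These rest on few reads, 162 estimated fragments in the highest library (95% exact Poisson interval 138.0 to 189, counting error only) and 25 in the lowest (16.2 to 36.9). The means were 1.81 ± 0.868 (SD, n = 3) and 1.09 ± 0.575 FPKM. The log2 fold change was -0.55 (SE 0.37, interval -1.40 to 0.30, limma adjusted p = 0.518), close in size to the SD within genotype (0.54), with an interval that spans 0. With 1 library left out it ran from -0.79 (without AQP5-/- replicate 2) to -0.23 (without AQP5-/- replicate 1), and without AQP5+/+ replicate 1 it was -0.26.

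Nr1d1, the nuclear receptor that represses Arntl, varied most among the members. Nr1d1 (chr11:98767932-98775377, minus strand) was at 26.6, 13.6 and 4.86 FPKM in AQP5+/+ and at 3.96, 11.1 and 9.14 FPKM in AQP5-/-. The highest library was 6.72 times the lowest, and the lowest were AQP5-/- replicate 1 and AQP5+/+ replicate 3, one of each genotype. The log2 fold change was -0.68 (SE 0.58, interval -2.03 to 0.68, limma adjusted p = 0.605), and it hung on single libraries. Leaving out AQP5+/+ replicate 1 gave -0.13 (limma adjusted p = 0.967) and leaving out AQP5-/- replicate 1 gave -0.26 (adjusted p = 0.904). Leaving out AQP5+/+ replicate 3 gave -1.30 (limma adjusted p = 0.785), past an unadjusted p of 0.05. Nr1d1 shares 1075 bases of its locus with Thra, a thyroid hormone receptor gene on the opposite strand, and no source says if the counting used strand. Thra itself was at 7.59, 4.82 and 4.70 FPKM in AQP5+/+ and at 2.99, 4.97 and 4.06 FPKM in AQP5-/-.

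Dbp, the D-box transcription factor, was highest in the same library as Nr1d1. Dbp (chr7:45705100-45710203, plus strand) was at 22.7, 11.9 and 7.64 FPKM in AQP5+/+ and at 11.5, 5.98 and 6.62 FPKM in AQP5-/-. AQP5+/+ replicate 1 stood above the rest, and the genotypes overlapped through AQP5-/- replicate 1. The means were 14.1 ± 7.79 (SD, n = 3) and 8.03 ± 3.004 FPKM, with a log2 fold change of -0.69 (SE 0.39, interval -1.60 to 0.21, limma adjusted p = 0.473). Without AQP5+/+ replicate 1 it was -0.29 (limma adjusted p = 0.885). Without AQP5+/+ replicate 3 it was -1.05 (limma adjusted p = 0.785) and without AQP5-/- replicate 1 it was -0.97 (adjusted p = 0.634), both past an unadjusted p of 0.05. Dbp overlaps Sphk2, a sphingosine kinase gene, over 741 bases.

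Per1, a repressor of the loop that is also known to answer cyclic AMP and glucocorticoid signals within hours, split the libraries across the genotypes. Per1 (chr11:69095108-69109965, plus strand) was at 11.5, 11.4 and 27.9 FPKM in AQP5+/+ and at 23.1, 7.83 and 7.67 FPKM in AQP5-/-. AQP5+/+ replicate 3 and AQP5-/- replicate 1 stood well above the other 4 libraries, of which the highest was at 11.5 FPKM. The log2 fold change was -0.44 (SE 0.48, interval -1.56 to 0.67, limma adjusted p = 0.680), and it too hung on single libraries. It was -0.027 without AQP5+/+ replicate 3 (limma adjusted p = 0.989), and dropping AQP5-/- replicate 3 or 2 left -0.18 or -0.20. Dropping AQP5-/- replicate 1 gave -0.95 (limma adjusted p = 0.634), past an unadjusted p of 0.05. Per2 (chr1:91415977-91459351, minus strand), its close relative, was at 2.74, 3.06 and 6.72 FPKM in AQP5+/+ and at 4.88, 2.43 and 2.17 FPKM in AQP5-/-. The same libraries were the highest. The difference was -0.33 (SE 0.38, interval -1.20 to 0.55, limma adjusted p = 0.696), and with 1 library left out it ran from -0.64 (without AQP5-/- replicate 1) to 0.034 (without AQP5+/+ replicate 3).

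Cry1 and Cry2 encode the cryptochromes, the partners of the PER proteins. Cry1 (chr10:85131700-85185054, minus strand) was at 2.25, 1.88 and 3.73 FPKM in AQP5+/+ and at 4.01, 2.24 and 2.25 FPKM in AQP5-/-. Cry2 (chr2:92403646-92434085, minus strand) was at 12.7, 10.8 and 15.1 FPKM in AQP5+/+ and at 14.7, 9.25 and 7.21 FPKM in AQP5-/-. Both again had AQP5+/+ replicate 3 and AQP5-/- replicate 1 as their highest libraries. The genotypes overlapped, with log2 fold changes of 0.10 (SE 0.30, interval -0.59 to 0.78, limma adjusted p = 0.895) for Cry1 and -0.34 (SE 0.26, interval -0.94 to 0.25, adjusted p = 0.555) for Cry2. Cry1 was below 0 without AQP5-/- replicate 1 (-0.14), without AQP5+/+ replicate 2 (-0.074) and with array weights (-0.12), and reached 0.34 without AQP5+/+ replicate 3. Cry2 was -0.12 without AQP5-/- replicate 3 (limma adjusted p = 0.876) and -0.22 without AQP5+/+ replicate 3 (adjusted p = 0.859). It was -0.61 without AQP5-/- replicate 1 (limma adjusted p = 0.634), past an unadjusted p of 0.05. Among the circRNAs of the series 1 came from a member, an exonic circle of Cry1 (chr10:85143016-85157194, 1487 nt), named after its values were seen, with 2 junction reads in AQP5-/- replicate 2 and 0 in the other libraries, too few for the test.

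Per3 is the remaining period gene, known in mice to be dispensable for the rhythm itself. Per3 (chr4:150997018-151044707, minus strand) was at 13.4, 9.47 and 14.8 FPKM in AQP5+/+ and at 9.10, 10.005 and 5.72 FPKM in AQP5-/-. AQP5+/+ replicates 1 and 3 were above the other 4 libraries, and the genotypes overlapped through AQP5+/+ replicate 2. Its log2 fold change was -0.59 (SE 0.25, interval -1.16 to -0.02, limma adjusted p = 0.432), past an unadjusted p of 0.05 by a narrow margin. That call was lost on leaving out AQP5+/+ replicate 1 (-0.53) or 3 (-0.46) or AQP5-/- replicate 1 (-0.67) or 3 (-0.36), and with median centring (-0.45). The 4 libraries with Y-linked transcripts were those below the other pair, an order that 35.6% of all genes shared.

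Bhlhe40 (DEC1), a transcriptional repressor that competes for E-boxes and is also known to respond to hypoxia and immune activation, was the 1 member whose genotypes did not overlap. Bhlhe40 (chr6:108660629-108666925, plus strand) was at 4.33, 10.96 and 2.44 FPKM in AQP5+/+ and at 16.0, 13.5 and 13.6 FPKM in AQP5-/-. The AQP5-/- libraries were close together and AQP5+/+ replicate 2 lay nearer to them than to the other AQP5+/+ libraries. The means were 5.91 ± 4.47 (SD, n = 3) and 14.4 ± 1.43 FPKM, a log2 fold change of 1.44 (SE 0.43, interval 0.44 to 2.44, limma adjusted p = 0.431). Groups that do not overlap, with AQP5-/- higher, were found for 3.86% of all genes.

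The level of Bhlhe40 followed the Y-linked transcripts as well as the genotype. It was higher in all 4 libraries that hold them than in both that lack them, as were 8.02% of all genes. With a term for these libraries in the limma fit, which leaves AQP5+/+ replicate 2 as the sole AQP5+/+ library beside the AQP5-/- ones, the genotype difference was 0.37 (SE 0.29) and that of Per3 -0.22 (SE 0.30), and neither reached an unadjusted p of 0.05. Without AQP5+/+ replicate 3 the Bhlhe40 difference was 0.997, just under the study's threshold of 2-fold, which Dbp and Nr1d1 then passed. Without AQP5+/+ replicate 2 the value for Bhlhe40 was 1.98 (limma adjusted p = 0.00447). Without that library and AQP5-/- replicate 1 together, an alternative chosen after seeing the data, it was 1.899 (adjusted p = 0.0203). Both fits leave out the only AQP5+/+ library with Y-linked transcripts. Genotype and the presence of these transcripts then divide the libraries alike and cannot be told apart. On estimated fragments its difference was 1.31 with edgeR's quasi-likelihood test (adjusted p = 0.415) and 1.31 with DESeq2 (adjusted p = 0.460), where it missed an unadjusted p of 0.05. Immune cell markers summed to 345, 836 and 413 FPKM in AQP5+/+ and to 1488, 1504 and 665 FPKM in AQP5-/-, a sum carried by Jchain, the joining chain of plasma cell antibodies. Without Jchain the sums were 121, 183 and 203 FPKM in AQP5+/+ and 217, 334 and 358 FPKM in AQP5-/-, in another order of libraries. Of 8 markers tested 3 were higher at an unadjusted limma p under 0.05, beside 3.27% of all genes. Lyz2, a lysozyme of myeloid cells, was past the study's threshold (limma adjusted p = 0.431), beside 1.16% of all genes in that direction. The part of the immune cell markers in the Bhlhe40 difference, like that of the skeletal muscle markers of AQP5+/+ replicate 2, was not tested.

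**Figure D2:**
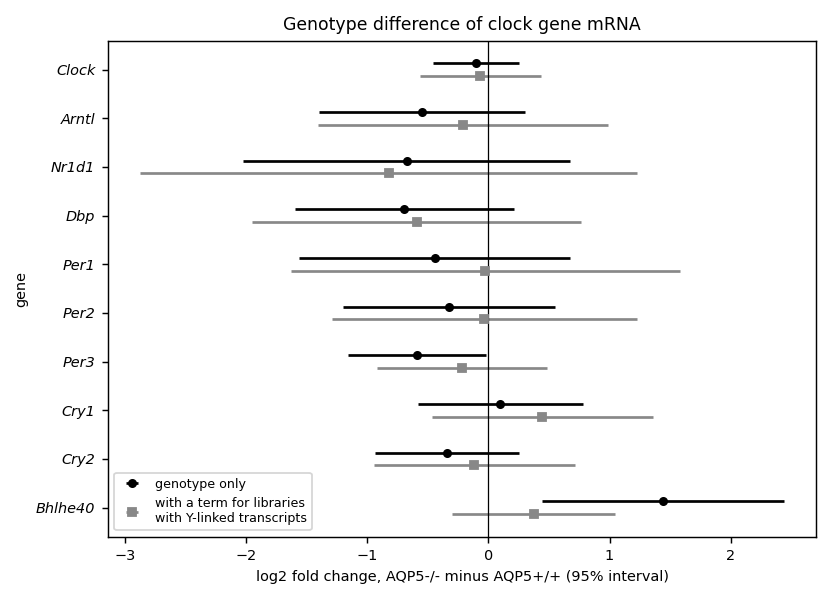
Log2 fold change of the 10 clock genes, AQP5-/- minus AQP5+/+, with 95% intervals from limma on 6 libraries, without (black circles) and with (grey squares) a term for libraries with Y-linked transcripts. With genotype alone the intervals of Bhlhe40 (0.44 to 2.44) and Per3 (-1.16 to -0.02) leave out 0, and with the term every interval spans 0.

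The members varied more between libraries of one genotype than most genes. The SD of log2(FPKM + 0.5) within genotype had a median of 0.57 over the members and of 0.25 over all genes tested. It lay above the 90th percentile of all genes for 6 of 10 members, at percentile 98.0 for Nr1d1, 96.7 for Per1, 95.4 for Bhlhe40, 93.8 for Dbp, 92.2 for Per2 and 90.2 for Arntl. Cry1 was at percentile 81.9, Cry2 at 78.0 and Per3 at 74.9. Clock, which is known to cycle little in most mouse tissues, was at 22.2.

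**Figure D3:**
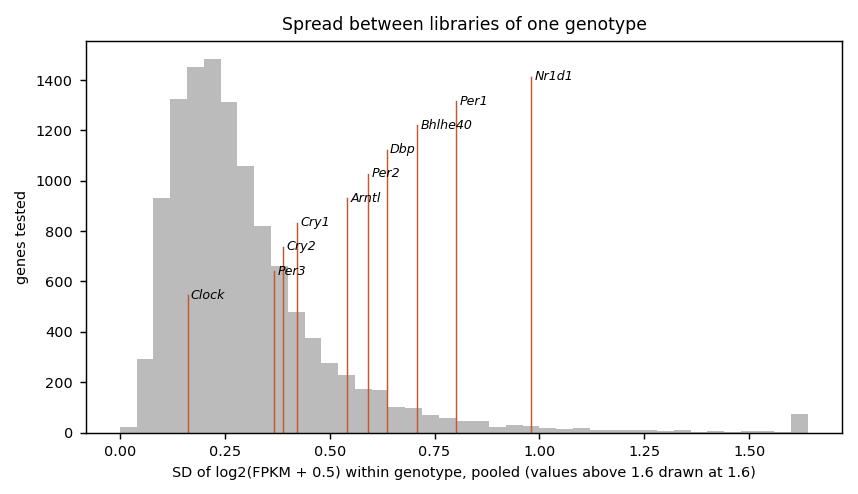
Histogram of the within-genotype SD of log2(FPKM + 0.5), pooled over the 2 genotypes, for the 11772 genes tested, with orange lines at the 10 clock genes (line heights carry no value). Nr1d1 and Per1 lie far in the right tail, at percentiles 98.0 and 96.7, and Clock lies left of the median of 0.25.

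The variation within genotype was shared by several members. AQP5+/+ replicate 3 and AQP5-/- replicate 1 were the highest libraries for Per1, Per2, Cry1 and Cry2, 4 of 10 members, beside 2.84% of all genes. They were the lowest for Nr1d1 and Clock, 2 of 10 members, beside 5.78% of all genes. Clock varied little, with these libraries at 8.75 and 7.77 FPKM against 9.39 to 10.9 FPKM in the others. This pair of libraries was chosen after its values were seen, so the counts are a description with no test. Dbp and Arntl did not join it as a pair, since AQP5-/- replicate 1 was in the middle for Dbp and the lowest for Arntl. AQP5+/+ replicate 1 was the highest library for Clock, Arntl, Nr1d1 and Dbp. The share of all genes highest there was not counted, while 35.6% had AQP5+/+ replicates 1 and 3 above the other 4 libraries.

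The order of peaks known from mouse tissues was set against the libraries through the ratio of Dbp to Arntl, which are known to peak at opposite times. The log2 ratio, after adding 0.5 FPKM to each gene, was 2.81, 2.82 and 2.12 in AQP5+/+ and 3.63, 1.62 and 2.08 in AQP5-/-. The AQP5-/- libraries held both the highest and the lowest ratio. The genotype means differed by -0.14 with a pooled SD of 0.80, and it turned sign with a pseudocount of 0.1 (0.015) or the count columns (0.16). With 1 library left out it ran from -0.73 (without AQP5-/- replicate 1) to 0.27 (without AQP5-/- replicate 2), and it was -0.38 without AQP5+/+ replicate 3 and 0.038 without AQP5-/- replicate 3. Across the 6 libraries Arntl did not run against Nr1d1, its repressor. Their Pearson r was 0.84 (exact permutation p = 0.0458, adjusted over 3 relations 0.138) and Spearman's rho 0.71 (exact p = 0.136). The relation rests on AQP5+/+ replicate 1 and AQP5-/- replicate 1, without which r was -0.04, and within genotype it was 0.81. For Arntl and Dbp r was 0.36 (exact permutation p = 0.504, adjusted 0.504) and rho 0.14 (exact p = 0.803), with -0.49 without the same libraries. For Arntl and Per3 r was 0.44 (exact permutation p = 0.358, adjusted 0.504), rho 0.77 (exact p = 0.103), and r without them 0.52. The hour of collection is not given, so a difference in phase between libraries and other differences between them cannot be told apart.

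The genes whose 6 values were most like those of Arntl in shape, among 10605 genes with a mean of at least 1 FPKM, were Lrrc8b (Pearson r 0.994), Amer1 (0.993) and Tjp3 (0.991). Those most like Dbp were Pofut2 (0.987), Nt5c2 (0.987) and Foxk2 (0.980). Pearson r compares shape and not size. On the log2(FPKM + 0.5) scale Pofut2 spanned 0.29, Nt5c2 0.61 and Foxk2 0.18, so they were nearly flat, while Dbp ran from 5.98 to 22.7 FPKM. The genes named are the extremes of a search over many genes with 6 points each and carry no test.

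Other genes of the clock were read from 4 lists of 33 genes, of which 30 passed the filter on low values. At an unadjusted limma p under 0.05 there were 0 higher (3.27% of all genes) and 3 lower (8.12% of all genes), with 0 past the study's threshold and 0 at an adjusted p under 0.05. The 3 lower were Tef, a relative of Dbp that binds the same D-boxes, Por, which passes electrons to cytochrome P450 enzymes, and Cirbp, a cold-inducible RNA-binding protein. Tef was at 65.3, 42.6 and 58.8 FPKM in AQP5+/+ and at 35.8, 42.6 and 33.9 FPKM in AQP5-/-. The genotypes did not overlap, by a narrow margin, since AQP5+/+ replicate 2 and AQP5-/- replicate 2 were nearly level, and 11.1% of all genes lay apart in this direction. Its log2 fold change was -0.55 (SE 0.18, limma adjusted p = 0.431), and with the term for Y-linked libraries it was -0.19. For Cirbp the difference went from -0.48 to -0.14 with that term. Por was at 69.6, 31.2 and 74.1 FPKM in AQP5+/+ and at 33.9, 30.3 and 31.3 FPKM in AQP5-/-, with AQP5+/+ replicate 2 at the AQP5-/- level, and with the term for Y-linked libraries its difference went from -0.77 to 0.03.

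Within these lists the pair of AQP5+/+ replicate 3 and AQP5-/- replicate 1 was the highest for 5 of the 29 genes reported here, named after their values were seen: Cipc, an inhibitor of CLOCK, and the output genes Usp2, Wee1, Tsc22d3 and Rbm3. Usp2, a deubiquitinase, was at 6.32, 9.76 and 16.8 FPKM in AQP5+/+ and at 13.0, 6.88 and 9.58 FPKM in AQP5-/-. Wee1, a kinase that delays entry into mitosis, was at 4.43, 5.27 and 8.25 FPKM in AQP5+/+ and at 6.35, 2.88 and 4.51 FPKM in AQP5-/-. Both thus ordered the top libraries as Per1 and Per2 did. The pair was the lowest for 0 of the 29. Over all genes the pair was the highest for 2.84% and the lowest for 5.78%. Nr1d2, the close relative of Nr1d1, was at 38.1, 29.9 and 30.0 FPKM in AQP5+/+ and at 31.4, 29.9 and 28.1 FPKM in AQP5-/-, and did not show the low values of Nr1d1 in AQP5+/+ replicate 3 and AQP5-/- replicate 1. Nfil3, the repressor that competes with Dbp for D-boxes, was at 17.6 FPKM in AQP5-/- replicate 1 and at 3.54 to 5.24 FPKM elsewhere.

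**Figure D4:**
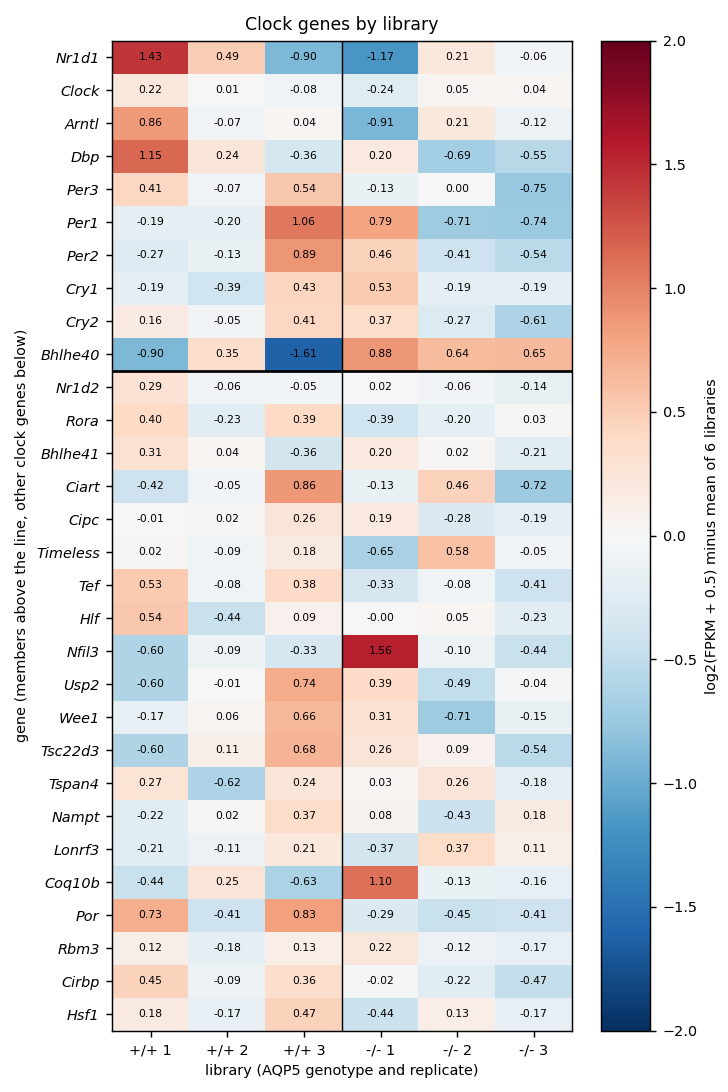
Deviation of log2(FPKM + 0.5) from the mean of the 6 libraries (colour and printed value, log2 units) for the 10 members above the line and the other clock paralogs, D-box factors and output genes reported here below it, with AQP5+/+ libraries left and AQP5-/- libraries right of the vertical line. Per1, Per2, Cry1 and Cry2 are red and Nr1d1 is blue in +/+ 3 and -/- 1, while Bhlhe40 is blue in +/+ 1 and +/+ 3 alone.

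The fast-responding genes of stimulation and stress were read in the same libraries. Of 12 immediate early genes 10 were highest in AQP5-/- replicate 1, and the share of all genes highest there was not counted. The list summed to 225, 170 and 352 FPKM in AQP5+/+ and to 944, 207 and 222 FPKM in AQP5-/-. The sum was highest in AQP5-/- replicate 1 and next highest in AQP5+/+ replicate 3. These were the 2 highest libraries for 6 of the 12 genes, beside 2.84% of all genes, but not for Fos or Ier3. Fosb was at its lowest in AQP5+/+ replicate 3 (0.691 FPKM). Past the study's threshold were 2, Fos and Ier3, both higher in AQP5-/-, beside 1.16% of all genes in that direction. Fos was at 18.5, 16.1 and 25.6 FPKM in AQP5+/+ against 128, 29.5 and 34.8 FPKM in AQP5-/-. Ier3 was at 4.45, 8.39 and 6.61 FPKM in AQP5+/+ against 33.1, 9.30 and 11.4 FPKM in AQP5-/-. The log2 fold change was 1.35 for Fos and 1.22 for Ier3 (limma adjusted p = 0.431 for both). With the term for Y-linked libraries it was 1.64 for Fos and 0.83 for Ier3.

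Glucocorticoid targets, which share a daily rhythm with the adrenal hormone, summed to 97.3, 143 and 215 FPKM in AQP5+/+ and to 179, 162 and 152 FPKM in AQP5-/-. Again AQP5+/+ replicate 3 and AQP5-/- replicate 1 were the highest sums, and for 4 of 10 genes they were the 2 highest libraries, beside 2.84% of all genes. Fkbp5, a chaperone partner induced by the glucocorticoid receptor, was at 15.7, 51.3 and 49.6 FPKM in AQP5+/+ and at 62.1, 65.5 and 52.9 FPKM in AQP5-/-. AQP5+/+ replicate 1 lay far below the other 5 libraries. The genotypes did not overlap, by a narrow margin, and 3.86% of all genes lay apart in this direction. The log2 fold change was 0.80 (limma adjusted p = 0.451). AQP5+/+ replicate 1, which had the highest Nr1d1 and Dbp, was the lowest library for 5 of 10 genes of the list, Fkbp5 among them. It was the highest for Klf9 (26.0 FPKM). The share of all genes lowest in that library was not counted. Of the 10 genes 0 reached an unadjusted limma p under 0.05. The part of either list in the levels of Per1, Per2, Cry1 and Cry2 was not tested.

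**Figure D5:**
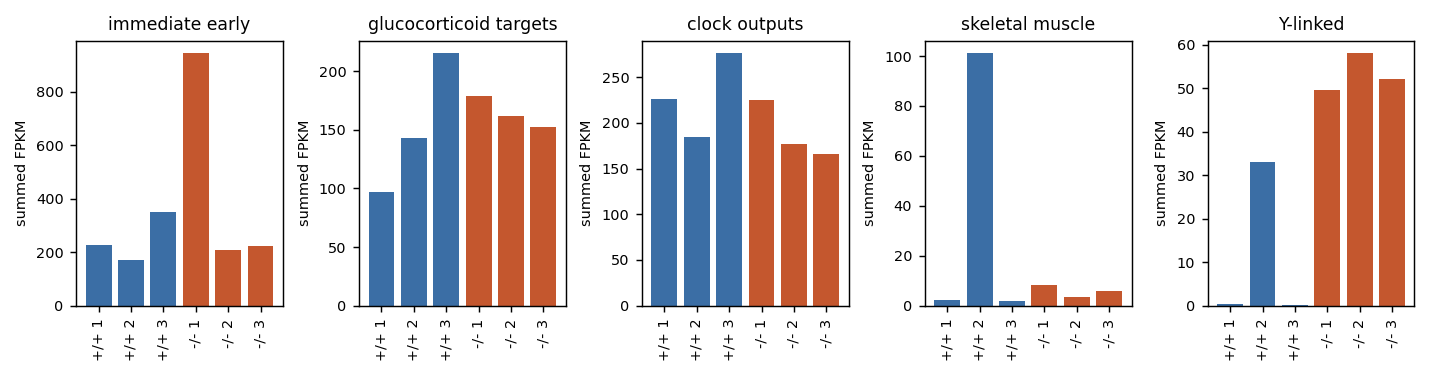
Summed FPKM (linear axes from 0, 1 bar per library, AQP5+/+ blue and AQP5-/- orange) of immediate early genes, glucocorticoid targets, clock output genes, skeletal muscle markers and Y-linked transcripts. AQP5-/- replicate 1 holds 944 FPKM of immediate early RNA, AQP5+/+ replicate 2 holds 101 FPKM of muscle RNA, and AQP5+/+ replicates 1 and 3 lack the Y-linked transcripts.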

How the data were processed

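Groups came from the sample labels. Cutadapt 1.9.3, STAR 2.5.1b, HISAT2 2.0.4, Cufflinks, Cuffdiff 2.2.1, edgeR 3.16.5 and the mm10 build are named in the submitters' processing notes. The authors deposited FPKM, 1 value for each protein-coding gene in each library. The authors deposited estimated counts beside them, scaled by 1 factor per library. These were divided by the step of each library and rounded to whole fragments (88.5% to 90.2% of genes whole within 0.01). The circRNA junction read counts were made by the authors with DCC, and 6 columns of normalised values were not used here. The authors' own fold changes and p-values were not used.

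Log2(FPKM + 0.5) was compared with limma 3.58.1 (trend, R 4.3.3) over 11772 genes whose FPKM averaged at least 0.5, with Benjamini-Hochberg adjustment over them. EdgeR 4.0.16 and DESeq2 1.42.0 were run on the estimated fragments. Other alternatives covered pseudocount, filter, scaling, the variance model, library weights, leaving out libraries 1 at a time, a replicate block and a term for libraries whose 4 Y-linked genes sum to over 0.5 FPKM. Correlations had two-sided exact permutation tests. The fits were tested on simulated data. Gene positions and start windows are RefSeq's (GRCm38), since the deposited loci merge neighbouring genes, and Ciart, Cipc and Jchain were matched by identifier. The members and lists were chosen with earlier results of these data known. The text names the members, Aqp5 and the 3 genes most like Arntl and Dbp. Of the lists it names some genes past the threshold or of small p, and not every such gene. Others were chosen after their values were seen. For library preparation the paper and the labels name different kits. The values of 1 listed gene are not reported here.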

Additional observations from a re-analysis of the deposited data

How the results depend on the processing

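Of 200 member results (10 members under 20 alternatives), 168 kept direction and side of an unadjusted p of 0.05, 14 lost the call, 8 gained it and 10 changed sign. The sign changes were Clock (0.034 with median centring, 0.044 with quantile normalization, 0.036 with TMM factors, 0.038 with edgeR, 0.029 with DESeq2), Per2 (-0.64 to 0.034 with 1 library left out, above 0 without AQP5+/+ replicate 3) and Cry1 (-0.12 with array weights, -0.07 without AQP5+/+ replicate 2, -0.14 without AQP5-/- replicate 1, -0.31 without both, and up to 0.34 without AQP5+/+ replicate 3). The mRNAs past the study's threshold, 240 with limma, were 554 with array weights, 365 with edgeR, 401 with DESeq2, 104 with the Y-linked term and 81 to 657 with 1 library left out. Members past it, 1 with limma, were 0 with edgeR, DESeq2 or the Y-linked term, 2 without AQP5+/+ replicate 2 and AQP5-/- replicate 1 together and 1 to 2 with 1 library left out. Members at an unadjusted p under 0.05, 2 with limma, were 1 with no filter, median centring, quantile normalization, TMM factors, no trend, edgeR or DESeq2, 0 with the Y-linked term, 4 without those libraries together and 1 to 4 with 1 left out. Genes of the 4 clock lists at that level, 3, were 1 with median centring and 0 to 7 with 1 library left out, and immediate early and glucocorticoid genes, 2, were 1 to 4. At an adjusted p under 0.05, array weights called 516 genes, Bhlhe40 among them (adjusted p = 0.0439). The correlation of Arntl with Nr1d1 was 0.83 (exact p = 0.050) with a pseudocount of 0.1 and -0.044, and that with Dbp -0.49, without the 2 libraries farthest in Arntl. Without AQP5+/+ replicate 2, genotype and the presence of Y-linked transcripts divide the libraries alike and cannot be told apart. The causes were not tested.

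Deviations from the genotype mean correlated at -0.14, -0.18 and -0.15 for same-numbered libraries and at -0.07 to 0.21 for the others. These values cannot tell if the replicate numbers pair the libraries. With the replicate block 286 mRNAs and 1 member passed the study's threshold, and 2 members had an unadjusted p under 0.05, Bhlhe40 and Dbp (limma adjusted p = 0.576 for both). DESeq2 was not run on circRNAs of members, as none entered the test. Depth limits Arntl most, at 25 estimated fragments in 1 library.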
